A study of Mus musculus with 6 samples.

Results

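The cells described are pericytes and vascular smooth muscle of the C3(1)-Tag mouse mammary gland and its tumors, the mural cells that wrap small vessels. They were chosen by the measured UMIs (unique molecular identifiers, each standing for 1 captured RNA molecule) of 10 genes in 6 single-cell RNA sequencing libraries. A member had 200 or more genes and under 10% mitochondrial UMIs, 2 or more UMIs of Rgs5, a UMI of at least 1 of Notch3, Cspg4, Kcnj8, Abcc9 and Pdgfrb, and none of Epcam, Ptprc, Cdh5 or Krt5. The rule found 272 members among 22244 cells that passed the gene and mitochondrial limits, out of 23835 barcodes.

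Pericytes sit within the basement membrane of capillaries and touch the endothelial cells, whereas vascular smooth muscle cells ring arterioles with a contractile apparatus of smooth muscle actin and myosin. Endothelial cells recruit both by secreting PDGF-B, which acts on the receptor Pdgfrb of mural cells, and Jag1 on the endothelium activates Notch3, a receptor that keeps vascular smooth muscle differentiated. Mural cells also make basement membrane collagen and, when stimulated, chemokines, and in tumors their coverage of vessels is often loose.

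All mice were female and carried the SV40 large T antigen under the C3(1) promoter, which is active mainly in epithelium, in an FVB/NJ background. The disease states were Prepuberty (whole gland at 5 weeks of age), DCIS (whole gland with ductal carcinoma in situ at 14 weeks) and Tumor (palpable tumor at over 18 weeks), with 2 libraries each, and every state carried the transgene, so no library came from a wild-type mouse. The study asked how the cells of the gland change on the way from normal ducts to invasive tumors. Nothing in the labels says that the 2 libraries of a state came from separate animals, so p-values measure the spread between libraries, which may be technical.

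The members of Prepuberty 1, Prepuberty 2, DCIS 1, DCIS 2, Tumor 1 and Tumor 2 numbered 71, 100, 31, 39, 23 and 8, and this order is kept below. Their summed UMIs ran from 79419 in Tumor 2 to 584352 in Prepuberty 2. The median UMI count of a member was 9310.5 in Tumor 2 and between 3515 and 4847 in the other libraries. Tumor 2, with fewer than 10 members, did not enter the tests across genes, where the Tumor state is Tumor 1 alone, assumed to vary like the other states, whereas the tests of shares used all 6 libraries. Levels are given in Tumor 2 as well, and fits that include it were added after the data had been seen. The labels give the same overnight digestion and the same 10x Genomics kit for all libraries, whereas the methods of the study name another dissociation kit for tumors and a later chemistry for Tumor 2. If so, the state and the dissociation cannot be told apart. Pairs of libraries shared between 9 and 39 barcode sequences.

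The label was checked on markers that the rule did not use. Of 12 smooth muscle markers, such as Tagln, Myh11 and Cnn1, all 12 had a UMI in the members of every library except Tumor 2, with 11, and 10 to 12 were higher in members than in both fibroblasts and endothelial cells of the same library. Of 24 pericyte genes, 17 to 22 had a UMI and 14 to 19 were higher than in both other cell types. The markers of immune and epithelial cells were low, and those of fibroblasts were not in Prepuberty. The 16 macrophage and leukocyte markers summed to 12.6 to 90.7 CPM (a gene's UMIs per 1000000 UMIs of the summed members of a library), 7 of them at 0 in every library. The 15 epithelial markers summed to 25.2 to 258 CPM against 2721 to 10785 in all other cells, and the 8 myoepithelial markers, of which Krt5 was barred by the rule and 5 were at 0 in all members, to 0 to 69.4. The 13 endothelial markers summed to 297 to 982 CPM. The 12 fibroblast markers summed to 2499 and 2700.4 in the Prepuberty libraries and to 487, 824, 803 and 856 in the others, and 341 of the 422 UMIs of Dcn, a fibroblast proteoglycan, in Prepuberty 1 lay in 1 member. A UMI of the T antigen was seen in 2 members, 1 in each tumor. The counts of pericyte genes with a UMI include scarce ones. Among these genes Higd1b stood at 0, 6.85, 21.5 and 42.4 CPM in gland members, against 1686 and 1158 in the tumors.

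The genes of the rule chose the cells, so their levels are a description. Rgs5, which encodes a brake on G protein signalling in mural cells (GRCm38 chr1:169655501-169695813, plus strand), stood at 1656, 1269.8, 2551, 2388, 4710.2 and 6371 CPM, and the median member held 6, 5, 8, 6, 20 and 73 of its UMIs. Members with exactly 2 Rgs5 UMIs numbered 43, and cells that met every other condition but held 1 numbered 41, 47, 3, 6, 1 and 2. Pdgfrb, the PDGF-B receptor, was detected in 76.1%, 66.0%, 67.7%, 48.7%, 91.3% and 87.5% of members. Its level was 252, 246, 222, 200.04, 496 and 642 CPM. Kcnj8 and Abcc9, neighbours on chromosome 6 that encode the pore and the regulatory subunit of an ATP-sensitive potassium channel, were both higher in Tumor 1 than in the glands, Kcnj8 at 155, 210.5, 93.1, 139, 674 and 164 and Abcc9 at 66.9, 61.6, 186, 218, 357 and 516. Notch3 was at 88.3, 115, 78.8, 72.7, 169 and 390.3 CPM. Cspg4, which encodes the proteoglycan NG2, was nearly absent outside tumors, at 2.68, 3.42, 0, 0, 49.6 and 151. All 6 genes were higher in Tumor 1 than in any gland library, and all except Kcnj8 were higher still in Tumor 2. The rule leaned on 1 of its 5 further genes alone in 125 members, of which 3 were in Tumor 1 and 1 in Tumor 2.

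Members made up a smaller share of all cells from one state to the next. They were 1.62%, 2.78%, 0.979%, 0.974%, 0.514% and 0.307% of the cells that passed the limits, with exact 95% Clopper-Pearson intervals, which cover counting error only, of 1.27 to 2.04, 2.26 to 3.37, 0.666 to 1.39, 0.694 to 1.33, 0.326 to 0.770 and 0.133 to 0.604. The libraries of the states did not overlap. The share also rests on the condition of no Cdh5 UMI. Cells with 2 or more Rgs5 UMIs and a further gene of the rule that held a Cdh5 UMI numbered 163, 302, 19, 51, 5 and 0. A share without that condition was not tested. The trend over the order of the states had a Pearson r of -0.89 (exact permutation test over the 6 libraries, two-sided p = 0.0222, the smallest this design can give) and a Spearman rho of -0.956 (exact permutation p = 0.0222). A comparison of 2 libraries with 2 cannot go below an exact p of 0.333. The trend depended on the cells it was set against. Among cells without a UMI of Epcam, Ptprc or the T antigen, which leaves out most epithelial, tumor and immune cells, the shares were 2.17%, 3.10%, 2.45%, 1.76%, 4.46% and 1.90%, and r was 0.241 (exact permutation p = 0.667).

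**Figure D1:**
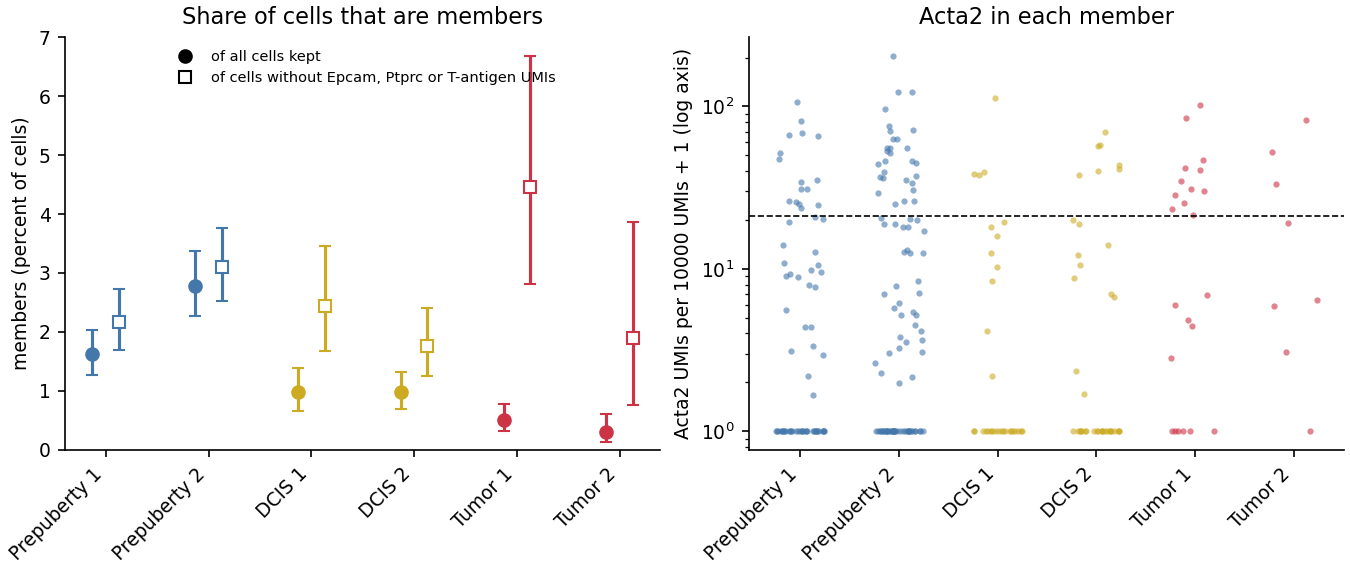
Left, members in percent of all cells kept (filled circles) and of cells without Epcam, Ptprc or T-antigen UMIs (open squares) in each library, with exact 95% binomial intervals. Right, Acta2 UMIs per 10000 UMIs plus 1 in each member on a log axis, with the limit of 20 per 10000 for an Acta2-high member as a dashed line. The filled circles run from 2.78% down to 0.307%, the open squares do not fall with the state, and many members of every gland library hold no Acta2 UMI.

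Acta2 encodes smooth muscle actin (GRCm38 chr19:34241090-34255590, minus strand), the main actin of vascular smooth muscle. Its level in members was 1373, 1845, 1204, 1218, 2757 and 2418 CPM. Members with 20 or more Acta2 UMIs per 10000 of their UMIs were called Acta2-high. They numbered 16, 29, 4, 7, 12 and 3, or 22.5%, 29.0%, 12.9%, 17.9%, 52.2% and 37.5% of members, and the trend of this share over the states had r = 0.594 (exact permutation p = 0.222). Of the 272 members 60 lay near the limit, between 10 and 40 per 10000 and on both sides of it, so the classes are ranges of a continuum. The median UMI count of Acta2-high and Acta2-low members was 5439 and 4663 in Prepuberty 1, 5120 and 4611 in Prepuberty 2, 6959.5 and 4167 in DCIS 1, 6389 and 3416 in DCIS 2, 3993 and 4002 in Tumor 1, and 8899 and 9722 in Tumor 2. Acta2-high members were thus deeper in all gland libraries, most so in DCIS. With members thinned to 3000 UMIs the Acta2-high shares were 28.3%, 35.3%, 16.7%, 17.9%, 52.9% and 57.1%, and r was 0.603 (exact permutation p = 0.244).

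The classes were cut on Acta2 itself, so their differences are given without a test, in the 3 libraries with 10 or more members of each class (Prepuberty 1, Prepuberty 2 and Tumor 1), on the scale of log2(CPM + 10). Of 4592 genes at 30 or more CPM in a class, 703 (15.3%) were higher and 752 (16.4%) lower in Acta2-high members of every one of the 3. Contractile genes other than Acta2 were higher as a group, 17 of 24 in every library and none lower in every library, with a median difference of 1.70 on the log2 scale against 0.0026 over all genes. Tagln, which encodes the actin-binding protein SM22, differed by 3.86, 3.36 and 4.41 in the 3 libraries. It stood at 2101 against 135 CPM in Prepuberty 1, 2809 against 264 in Prepuberty 2 and 1588 against 65.1 in Tumor 1. Actg2, a second smooth muscle actin, differed by 3.12, 3.23 and 4.83, and Myh11, the smooth muscle myosin heavy chain, by 2.87, 1.95 and 3.78. Cnn1, the thin filament protein calponin, and Lmod1, an actin nucleator of smooth muscle, were at 0 in the Acta2-low members of Tumor 1 and at 91.3 and 54.8 in its Acta2-high members. Des, which encodes the intermediate filament desmin, did not follow the group, with differences of -0.21, 1.27 and -0.09.

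Acta2-low members held more of several pericyte genes. Of 16 such genes 9 were lower in the Acta2-high members of every library and 3 higher. Steap4, a metalloreductase, differed by -2.23, -2.89 and -4.02, and Rgs4, a regulator of G protein signalling, by -1.67, -2.07 and -1.33. Cygb, which encodes cytoglobin, differed by -3.70, -1.61 and -0.88. Mcam, the adhesion molecule CD146, went the other way at 0.56, 1.24 and 1.12, and Higd1b, a mitochondrial protein of the hypoxia-inducible domain family, could be compared in Tumor 1 alone, at 1771 against 1584 CPM, since the Prepuberty members held 0 and 4 of its UMIs. The interferon and MHC class I list had 14 of 29 genes lower and 2 higher in Acta2-high members of every library, and the immediate early and heat shock list had 16 of 25 lower and 0 higher. Of 8 fibroblast markers 3 were lower in Acta2-high members of every library (Dcn, Lum and Gsn) and 0 higher. Dcn stood at 50.3 against 1521 CPM in Prepuberty 1, 109 against 1646 in Prepuberty 2 and 18.3 against 347 in Tumor 1, where the 1521 rests mainly on the 1 member with 341 UMIs. Of 5 endothelial markers 1 was lower in Acta2-high members of every library and 0 higher, with a median difference of -2.25, against -2.27 for the fibroblast markers. The part of fibroblast or endothelial RNA in these differences was not tested.

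**Figure D2:**
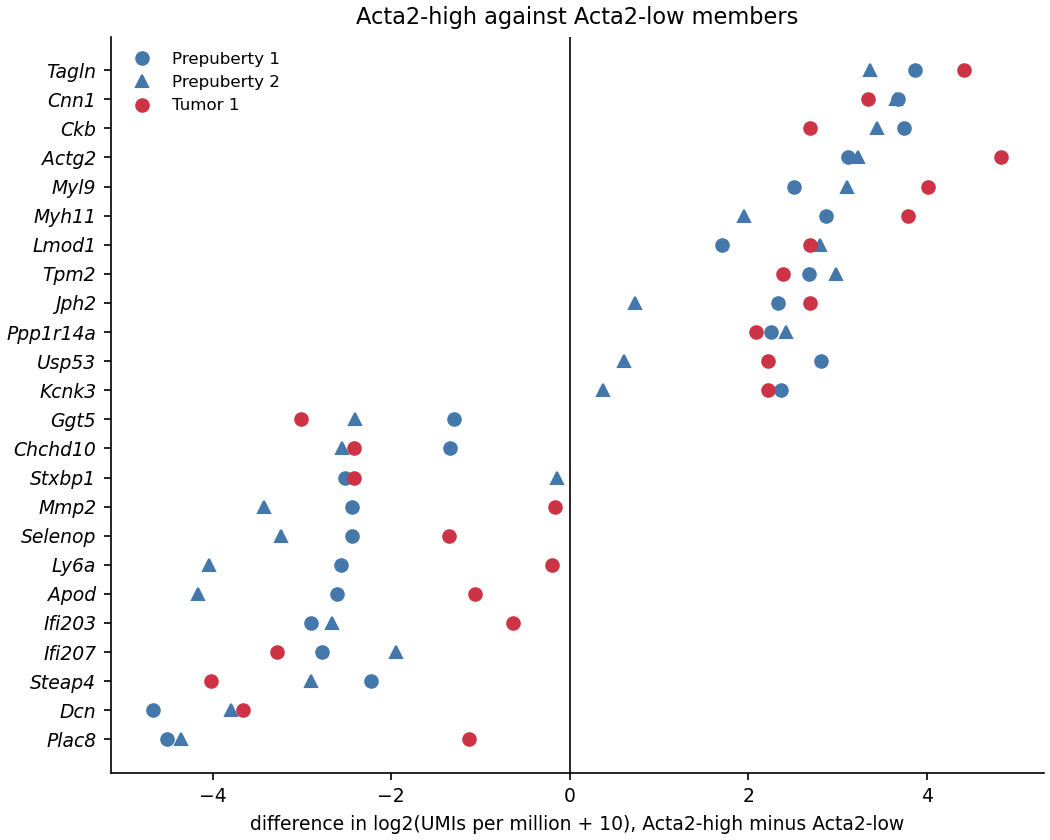
Differences between Acta2-high and Acta2-low members in log2(CPM + 10) for the 12 genes with the largest median difference in each direction, 1 point per library. The 12 upper genes are to the right of 0 and the 12 lower genes to the left of it in all 3 libraries, since that sign was required. Tagln lies at 3.36 to 4.41, and Plac8 and Ly6a lie closer to 0 in Tumor 1 than in the Prepuberty libraries.

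The promoter windows of contractile genes are shown because these genes moved together with Acta2. The CArG box is the element that serum response factor binds in many smooth muscle promoters, and TGGGAA is the core bound by RBPJ, the DNA-binding partner of Notch. Both strands were searched in the RefSeq windows of the GRCm38.p6 build, which run from 250 bases before to 50 after a transcript start, and only exact forms were counted, for the CArG box CC and GG around 6 bases that are each A or T. A form with a mismatch, or one outside the window, was not counted, so a window without a match says nothing of either factor. No window of these genes held both exact forms. A CArG box was present in 535 of 32851 windows (1.63%) and TGGGAA or its complement TTCCCA in 8397 (25.6%). The table held 21 of the 27 contractile genes, in 25 windows, and lacked Tagln, Myh11, Actg2, Nexn, Rbpms and Map3k7cl. An exact CArG box was found for 3 genes. It is in capitals in these windows of 30 bases, at chr2:156775293-156775322 (plus strand) for Myl9, a regulatory light chain of myosin, chr10:128493040-128493069 (minus strand) for Myl6, an essential light chain, and chr16:57549170-57549199 (plus strand) for Filip1l, a filamin-interacting protein.
Myl9: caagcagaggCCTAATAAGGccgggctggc
Myl6: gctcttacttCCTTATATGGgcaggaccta
Filip1l: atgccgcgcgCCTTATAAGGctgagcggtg
The RBPJ core was found for Csrp1, Tpm1, Smtn and Acta2. In the Acta2 window (chr19:34255324-34255623, minus strand, 5′ to 3′) it is in capitals.
Acta2: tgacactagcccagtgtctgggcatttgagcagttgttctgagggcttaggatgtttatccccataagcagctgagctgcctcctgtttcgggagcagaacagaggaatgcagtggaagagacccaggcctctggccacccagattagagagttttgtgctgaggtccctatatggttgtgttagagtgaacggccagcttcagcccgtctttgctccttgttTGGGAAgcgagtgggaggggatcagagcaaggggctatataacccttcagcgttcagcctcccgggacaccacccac
These matches describe letters in the windows and do not show binding.

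States were compared in edgeR, by a quasi-likelihood test on the members' UMIs summed per library, over 3266 genes and 5 libraries, with Benjamini-Hochberg adjusted p-values and a threshold of 0.05. Fold changes are on the log2 scale with an SE derived from the test, as the absolute fold change over the square root of the F statistic. Levels are CPM of the summed members, from a 3′ assay in which a transcript counts once whatever its length. From DCIS to Tumor, 103 genes rose (3.15% of those tested) and 68 fell (2.08%), and the median of all genes was -0.10. With both tumors in the fit 145 of 2616 genes rose (5.54%) and 150 fell (5.73%), and with Tumor 2 in place of Tumor 1 145 of 3905 rose (3.71%) and 249 fell (6.38%). The total was 295 with both tumors, and 56 passed without DCIS 1, 86 without DCIS 2 and 404 without Prepuberty 2.

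Pericyte genes rose in the members from DCIS to Tumor. Whether the rule caught the same kinds of mural cell in glands and tumors was not tested. Of the 24 pericyte genes outside the rule 15 passed the filter on low counts, 5 rose and 0 fell, with a median log2 fold change of 1.80. With Tumor 2 in place of Tumor 1, 3 of 16 rose and 1 fell, with a median of 0.93. Higd1b (GRCm38 chr11:102835849-102838040) stood at 0, 6.85, 21.5, 42.4, 1686 and 1158 CPM. Both tumors were above all glands, and the log2 fold change from DCIS was 5.68 ± 0.55 (edgeR adjusted p = 0.0013). A Higd1b UMI was found in 0, 4.0%, 6.5%, 5.1%, 95.7% and 75.0% of members. For 0 of 71 a limit of 3 counts is a share of 4.23% of members with a UMI, which does not limit the share that expressed the gene. With members and leukocytes each thinned to 3000 UMIs, 88.2% of members in Tumor 1, 71.4% in Tumor 2 and none of the leukocytes of any library held one. Ndufa4l2, a mitochondrial protein induced by hypoxia, stood at 42.8, 207, 86.0, 139, 1408 and 705 and rose by 3.63 ± 0.66 (adjusted p = 0.0151, edgeR). Its log2 fold change was 2.13 with Tumor 2 in place of Tumor 1, which did not pass (edgeR adjusted p = 0.0798). Cygb stood at 88.3, 135, 107, 97.0, 912 and 567 and rose by 3.16 ± 0.38 (adjusted p = 0.00237, edgeR). Ebf1, a transcription factor of pericytes and of adipocyte precursors, stood at 268, 349, 308, 261, 992 and 793 and rose by 1.80 ± 0.35, and with Tumor 2 in place of Tumor 1 its log2 fold change was 0.98, which did not pass (edgeR adjusted p = 0.101). Vtn, which encodes vitronectin, was the exception in Tumor 2. It stood at 64.2, 54.8, 93.1, 78.8, 347 and 25.2, rose by 2.01 ± 0.42 with Tumor 1 (adjusted p = 0.0259, edgeR) and had a log2 fold change of -2.24 with Tumor 2 in its place.

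Interstitial matrix genes rose in larger number than any other list. Of 30 tested, 13 rose and 0 fell, with a median log2 fold change of 2.43, and 16 of 27 rose with both tumors in the fit. Their summed level was 5550.0, 4181, 3497, 3613, 26476 and 32662 CPM. Col1a1, a chain of type I collagen, stood at 147, 80.4, 7.17, 36.4, 2301 and 2405. The tumors were both above every gland, and the gene rose by 6.64 ± 0.61 (edgeR adjusted p = 0.00122). Mgp, matrix Gla protein, which restrains calcification of vessel walls, stood at 58.9, 97.5, 258, 103, 8746 and 11383 and rose by 5.603 ± 0.51 (adjusted p = 0.00122, edgeR). Col3a1 rose by 3.33 ± 0.52, from 287 and 169.7 in DCIS to 2301 in Tumor 1, with 2820.5 in Tumor 2. Fn1 (fibronectin) rose by 4.50 ± 0.89 and Aspn (asporin, a small proteoglycan) by 4.05 ± 0.68, with 1989 and 516 CPM in Tumor 2. Bgn (biglycan), at 334, 411, 666, 479, 2191 and 1423, rose by 1.93 ± 0.35, and with Tumor 2 in place of Tumor 1 its log2 fold change was 0.81, which did not pass (edgeR adjusted p = 0.147). Col1a2, Col5a3, Col6a1, Col6a2, Col6a3 and Col8a1 also rose, as did Cyr61, a matricellular protein. Cd248, which encodes endosialin, a receptor of tumor pericytes and fibroblasts, was at 5.35, 5.13, 0, 6.06, 288 and 567. Its ratio of Tumor 1 to DCIS was 87.6, with an exact 95% counting interval of 14.5 to 3580, since DCIS members held 1 UMI. Of 8 tested fibroblast markers 0 passed in either direction, and their median was -0.10, as over all genes. Their part in the levels of the matrix genes was not tested.

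Basement membrane genes rose too, 4 of 16 with a median of 1.71, and 9 of 14 with both tumors. Col4a1 and Col4a2, the chains of type IV collagen, start at one shared region and are read in opposite directions (chr8:11198423-11312826, minus strand, and chr8:11312805-11449287, plus strand). Col4a1 stood at 289, 207, 258, 212, 942 and 3047 and rose by 2.00 ± 0.39 (adjusted p = 0.0191, edgeR). Col4a2 stood at 276, 156, 236, 327, 1438 and 2783 and rose by 2.35 ± 0.43 (adjusted p = 0.0159, edgeR). Col15a1, a collagen of the zone around vessel basement membranes, was at 21.4, 3.42, 0, 0, 426 and 378. DCIS members held none, and with a floor of 3 counts over their summed UMIs the level was at least 43.3-fold higher in Tumor 1, and at least 23.4-fold without DCIS 1 or 19.8-fold without DCIS 2, where the floor rests on fewer UMIs. Plat, tissue plasminogen activator, a protease of the vessel wall, also rose, at 10.7, 5.13, 7.17, 6.06, 377 and 289.6, a ratio of 57.4 to DCIS (exact 95% counting interval 14.8 to 491).

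**Figure D3:**
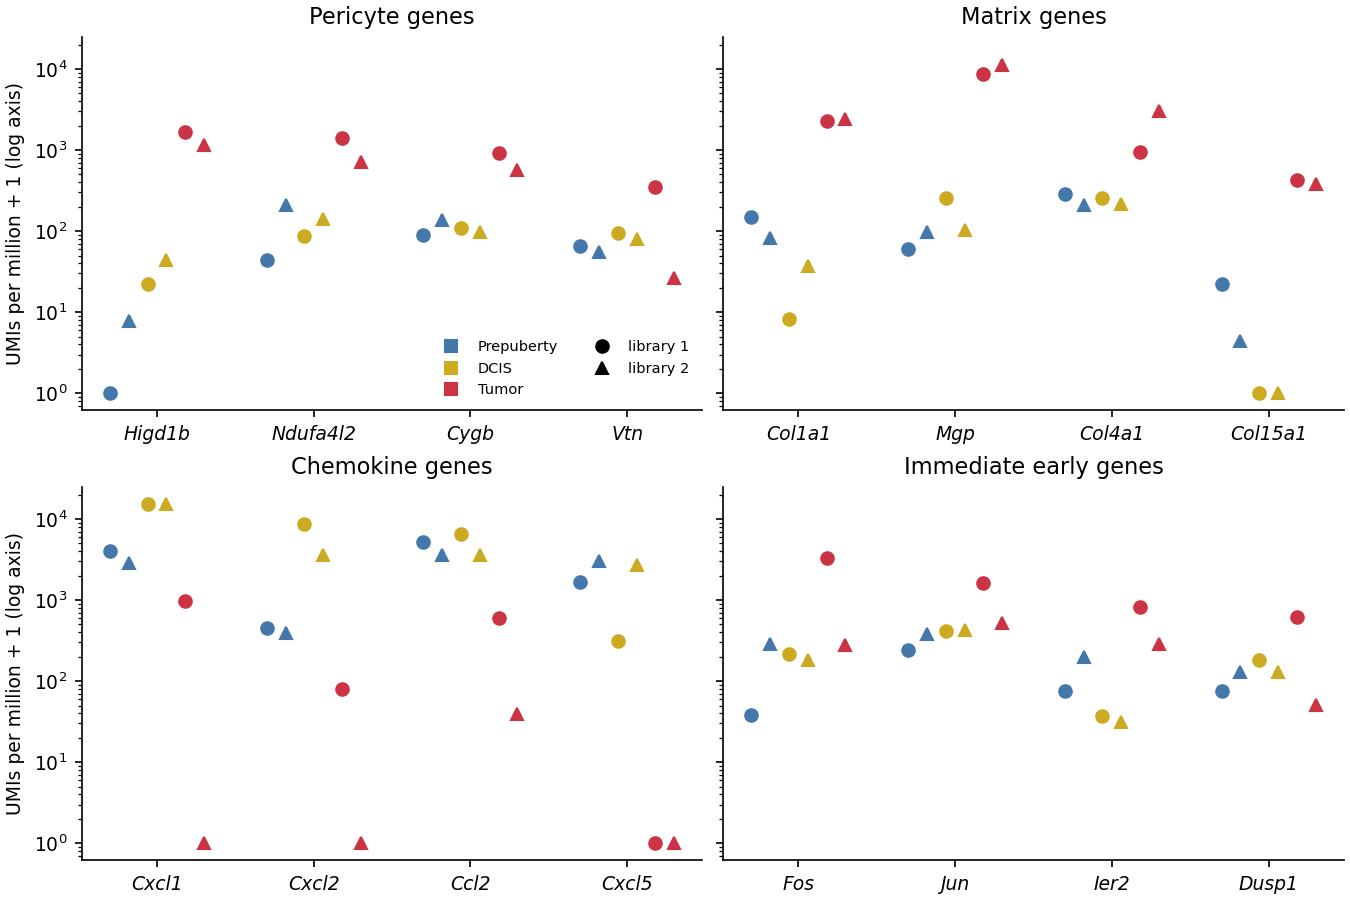
CPM plus 1 (log axis) in the summed members of each library for 4 genes each of the pericyte, matrix, chemokine and immediate early lists, with the state as the color and the library as the shape. Both tumors lie above all glands for the matrix genes and below them for the chemokine genes, while Vtn and the immediate early genes separate Tumor 1 from Tumor 2.

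Chemokine and cytokine genes fell from DCIS to Tumor. Of 29 tested 9 fell and 0 rose, with a median of -2.94, or -1.23 when genes at 0 to 3 UMIs were set to their counted bound or ratio, and 12 of 25 fell with both tumors. The summed level of the list was 18973, 17322, 49864, 37099, 5028 and 755 CPM. Cxcl1, which draws neutrophils, was the most abundant in DCIS of those that fell, at 4041, 2907, 15463, 15464, 962 and 0. It fell by 4.01 ± 0.50 (adjusted p = 0.00237, edgeR). With each cell thinned to 3000 UMIs, a Cxcl1 UMI was found in 83.3%, 78.8%, 95.8%, 82.1%, 52.9% and 0 of members, and in 50.0%, 15.1%, 33.3%, 29.9%, 21.7% and 1.05% of leukocytes, so the share was also lower in the leukocytes of Tumor 2 than in those of any other library. Cxcl2, of the same cluster on chromosome 5, stood at 458, 390.2, 8641, 3558, 79.3 and 0, and fell by 6.27 ± 0.78 (adjusted p = 0.00237, edgeR). Cxcl5, another neutrophil chemokine of the cluster, was at 1651, 3017, 315, 2704, 0 and 0. Against the floor it was at least 54.1-fold lower in Tumor 1 than in DCIS, and at least 90.9-fold without DCIS 1 but 10.6-fold without DCIS 2. Cxcl12, which retains hematopoietic and lymphoid cells through CXCR4, was at 109.7, 335, 251, 242, 0 and 0 and at least 8.28-fold lower. Ccl19, a ligand that guides T cells and dendritic cells through CCR7, was at 136, 258, 143, 121, 0 and 0 and at least 4.42-fold lower (the value of 1 of the features that share this symbol, ENSMUSG00000071005). The monocyte and eosinophil chemokines Ccl2, Ccl7 and Ccl11 fell by 3.07 ± 0.56, 3.30 ± 0.56 and 3.07 ± 0.56, and Ccl2 stood at 5157, 3561, 6470.3, 3631, 605 and 37.8. Thinned in the same way, a Ccl2 UMI was found in 75.0% to 83.3% of members of the 4 glands and 26.9% to 64.7% of their leukocytes. In Tumor 1 it was in 35.3% of members and 34.2% of leukocytes and in Tumor 2 in 14.3% and 22.0%. The share in tumor members was thus near or below that in leukocytes, whose own Ccl2 RNA was not told apart from free RNA. The part of free RNA in these decreases was not tested. In Tumor 2 Ccl7 was at 0 and Ccl11 at 37.8. Il11, a cytokine of the IL-6 family, also fell, with 1 UMI left in Tumor 1 and 2 in Tumor 2. The interferon and MHC class I list had 1 of 29 genes lower (Ifit3) and 0 higher with Tumor 1, and 17 of 29 lower with Tumor 2 in its place, where 6.38% of all genes fell.

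Immediate early genes, which respond within minutes to stimuli including tissue dissociation, differed between the tumors. Of 25 immediate early and heat shock genes 9 rose from DCIS to Tumor 1 and 1, the small heat shock gene Hspb1, fell, with a median of 0.97. With Tumor 2 in place of Tumor 1, 2 rose and 5 fell, with a median of -1.20. Fos stood at 37.5, 286, 215, 182, 3322 and 277 and rose by 4.06 ± 0.75 (adjusted p = 0.0159, edgeR), but Tumor 2 lay within the range of the glands. Jun, Nr4a1 and Dusp1 rose with Tumor 1 by 1.96 ± 0.35, 1.61 ± 0.40 and 2.01 ± 0.41, and with Tumor 2 in its place their log2 fold changes were -0.22, -3.16 and -2.09. Fosb, Ier2 and Klf2 were above both DCIS libraries in both tumors, Ier2 at 74.9, 200.2, 35.8, 30.3, 813 and 289.6.

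Of 22 contractile genes tested 3 rose from DCIS to Tumor, where 3.15% of all genes rose, and 0 fell, with a median of 0.49. With Tumor 2 in place of Tumor 1 the counts were 3 higher and 4 lower of 24, where 3.71% of all genes rose and 6.38% fell. Myl9 rose by 1.92 ± 0.34, from 172 and 188 to 684 CPM, Myl6 by 1.34 ± 0.32 and Filip1l by 2.57 ± 0.55. In Tumor 2 Myl9 was at 277, Myl6 at 1738 and Filip1l at 554, and with both tumors in the fit Myl9 and Myl6 did not pass (edgeR adjusted p = 0.0974 and 0.103). Among Acta2-low members alone 0 of 20 contractile genes passed, where 0.933% of all genes did, and in members without a UMI of any of 9 genes of other cells 0 of 21, where 3.48% of all genes did. Tagln stood at 658, 981, 552, 806, 892 and 881, with both tumors within the range of the glands, and Myh11 at 134, 128, 86.0, 164, 69.4 and 189, with Tumor 1 below that range and Tumor 2 above it. Among 5 tested regulators of contractile genes Mef2c rose, from 7.17 and 18.2 to 198, with 189 in Tumor 2.

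The signalling lists of mural cells were short, and beside 3.15% of all genes higher and 2.08% lower a count of none among so few genes is no result about a list. Of 5 tested Notch pathway genes besides Notch3 none passed from DCIS to Tumor, with a median of -0.61, and Heyl, a Notch target of smooth muscle, was at 18.7, 10.3, 28.7, 12.1, 59.5 and 139. Of 10 vasoactive receptor and cGMP genes none passed, with a median of 0.40, and Ednra, the endothelin A receptor, was at 96.3, 149, 115, 72.7, 238 and 176. Of 7 PDGF, angiopoietin and VEGF genes Cxcl12 alone fell. Of 11 TGF-beta and BMP genes 2 fell, Id2 and Inhba, and with Tumor 2 in place of Tumor 1 neither passed (edgeR adjusted p = 0.0776 and 0.0990). None of 3 ion channel and calcium genes and none of 7 growth arrest and p53 genes passed. Of 18 glycolysis and hypoxia genes Ndufa4l2 rose and Slc2a1, the glucose transporter GLUT1, fell. Lipid genes fell in 2 of 9 cases, Lpl (lipoprotein lipase), at 1796, 756, 666, 806, 9.92 and 126, and Cd36, a fatty acid receptor, at 96.3, 99.3, 129, 84.9, 0 and 0. Emcn, which encodes the endothelial sialomucin endomucin, was the 1 of 5 endothelial markers that rose, at 72.3, 49.6, 14.3, 0, 149 and 0. Of the largest decreases outside the lists, Slc48a1, a heme transporter, was at 361, 284, 473, 430.4, 0 and 0, at least 15.1-fold lower, and Plpp3, a lipid phosphatase, at 0 in both tumors, was at least 7.84-fold lower in Tumor 1.

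**Figure D4:**
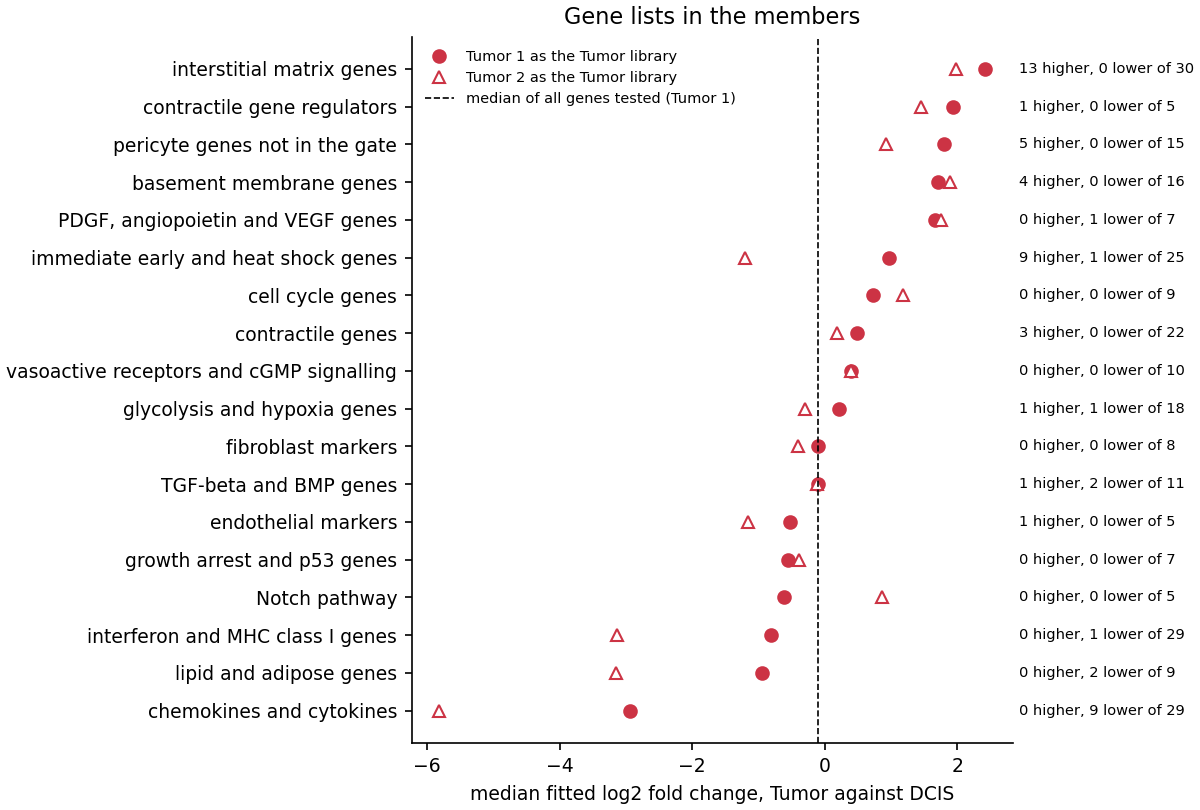
Median fitted log2 fold change from DCIS to Tumor over the tested genes of each list, with Tumor 1 (filled circles) or Tumor 2 (open triangles) as the Tumor library, and the counts that passed with Tumor 1 at the right. Interstitial matrix genes lie at 2.43 and chemokines at -2.94 with Tumor 1, the dashed line is the median of all genes at -0.10, and the immediate early list lies on either side of it with the 2 tumors.

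A further 3 genes outside the lists were chosen after their values were seen. Procr, the endothelial protein C receptor, stood at 5387, 2194, 12461, 11275, 109 and 0 CPM and fell from DCIS to Tumor by 6.76 ± 0.82 (adjusted p = 0.00237, edgeR). Chchd10, a protein of mitochondrial cristae, stood at 1598, 1679, 1627, 2055, 19.8 and 0. Its ratio of DCIS to Tumor 1 was 93.7, with an exact 95% counting interval of 25.8 to 776. Thy1, a surface glycoprotein of pericytes and fibroblasts, stood at 48.2, 35.9, 86.0, 60.6, 813 and 428 and rose by 3.48 ± 0.41 (adjusted p = 0.00237, edgeR). Each passed in 20 of 20 alternative fits.

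DCIS and Prepuberty members differed in few genes. 3 rose from Prepuberty to DCIS (0.0919% of 3266) and 2 fell (0.0612%), with 229 higher and 243 lower at an unadjusted p under 0.05 and a median of -0.01. Cxcl2 rose by 3.99 ± 0.47 (adjusted p = 0.0288, edgeR) and Cxcl1 by 2.28 ± 0.34 (adjusted p = 0.0445, edgeR), and both DCIS libraries lay above both Prepuberty libraries for each. Gadd45b, a stress-induced growth arrest gene, stood at 185, 161, 1218 and 636 in the glands and rose by 2.57 ± 0.39. Abi3bp, an extracellular matrix protein, at 182, 243, 14.3 and 30.3, fell by 3.06 ± 0.45, and Saa3, an acute phase protein, at 265, 269, 35.8 and 30.3, fell by 2.87 ± 0.38. Tnfrsf21 and Ets1 upward and Lgals3, Apoe and Dcn downward came next and did not pass, all at an adjusted p of 0.0558. In edgeR no gene passed with both tumors in the fit (13 in DESeq2), with Rgs5 of 4 or more UMIs or with a mitochondrial share under 5%, where 282, 372 and 445 had an unadjusted p under 0.05. It was 1 gene without DCIS 1 and 73 without Prepuberty 2. The summed fibroblast markers, which include Dcn itself, moved with Abi3bp and Apoe, from 2499 and 2700.4 CPM in Prepuberty to 487 and 824 in DCIS. In members without a UMI of 9 genes of other cells, Abi3bp had a log2 fold change of -2.58 (edgeR adjusted p = 0.201), Saa3 of -3.23 (0.192), Apoe of -1.50 (0.123) and Dcn of -1.23 (0.528), and none of these passed.

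Between Prepuberty and Tumor, 112 genes rose (3.43%) and 61 fell (1.87%), with a median of -0.07. The total was 96 without Prepuberty 1 and 329 without Prepuberty 2. Higd1b rose by 8.69 ± 0.61 (adjusted p = 0.000295, edgeR) and Mgp by 6.93 ± 0.53 (adjusted p = 0.000302, edgeR). Of 15 pericyte genes 7 rose, now with Mcam, at 5.35, 13.7, 14.3, 36.4, 149 and 327, and Lhfp. Of 30 interstitial matrix genes 14 rose and Dcn fell, and of 16 basement membrane genes 6 rose, now with Col18a1 and Nid1 (nidogen). In members without a UMI of 9 genes of other cells the log2 fold change of Dcn was 0.019. Dcn is also a fibroblast marker, and the 8 tested fibroblast markers had a median of -2.24. Serpine2, an inhibitor of thrombin and plasminogen activators, stood at 161, 90.7, 609, 327, 2896 and 1687 and rose by 4.66 ± 0.49. Of the interferon and MHC class I list 4 of 29 fell, Isg15, Ifit1, Ifit3 and Rsad2. Isg15, a ubiquitin-like protein induced by interferon, stood at 2681, 1845, 1347, 1485, 436 and 50.4. Of chemokines and cytokines 7 of 29 fell and Il34, a ligand of the macrophage receptor Csf1r, rose with Tumor 1, at 34.8, 35.9, 50.2, 72.7, 169 and 12.6. Apoe fell by 3.47 ± 0.63, and Saa3 was at 0 in both tumors and at least 8.98-fold lower in Tumor 1. This comparison shares its Tumor library with the one against DCIS, so the lists cannot count as independent.

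Cell cycle genes were found in a larger share of members in the tumors than in the glands, as in the fibroblasts. A member with UMIs of 2 or more of 10 proliferation genes was found in 1 of 71, 0 of 100, 1 of 31, 0 of 39, 5 of 23 and 3 of 8 members. The exact 95% interval reaches 3.62% for 0 of 100 and 9.03% for 0 of 39. The share was 21.7% in Tumor 1 (exact 95% interval 7.46 to 43.7). After thinning each member to 3000 UMIs, the counts were 1 of 60, 0 of 85, 1 of 24, 0 of 28, 3 of 17 and 2 of 7. The thinned share was 0 to 3.63% in the fibroblasts of the 4 glands, 7.55% in those of Tumor 1 and 18.3% in those of Tumor 2. In leukocytes it was 2.99% to 11.8% in the glands, 29.3% in Tumor 1 and 22.5% in Tumor 2, and in endothelial cells 0 to 1.46% in the glands, 15.4% and 6.67%. The difference between members and these cells, and the part of free RNA, were not tested. In the fits with Tumor 1, 9 genes of the cell cycle list were tested. None passed from DCIS to Tumor (median log2 fold change 0.73) or from Prepuberty to Tumor (1.11). As 3.15% and 3.43% of all genes rose in these comparisons, a count of none among so few is no result about the list.

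Changes from DCIS to Tumor were set against those of fibroblasts (4014 cells with Pdgfra and Dcn) and endothelial cells (881 cells with Cdh5 and Pecam1) of the same libraries, with a test of the state by cell type term in edgeR and the library as a block. Against fibroblasts 44 of 8389 genes (0.524%) had a higher and 31 (0.37%) a lower change in members, and none passed in edgeR when DCIS 1 or DCIS 2 was left out, with 635 and 637 at an unadjusted p under 0.05. Against endothelial cells the counts were 58 (0.737%) and 38 (0.483%) of 7873, in all 186 without Prepuberty 2. Col4a1 and Col18a1 set members apart from fibroblasts. Col4a1 was at 338, 146, 236, 299.6, 117 and 97.0 in fibroblasts, a difference in change of 3.44 ± 0.47 (adjusted p = 0.000187, edgeR), whereas endothelial cells, at 362, 258, 395, 423, 1472 and 3113, differed from members by 0.31 ± 0.37 (adjusted p = 0.821, edgeR). Mgp, at 2034, 822, 881, 857, 444 and 6.12 in endothelial cells, had a change 6.79 ± 0.54 higher in members (adjusted p = 1.62e-07, edgeR). Procr, at 329, 347, 273, 345, 124 and 135 in endothelial cells, had a change that was lower in members, at -5.31 ± 0.51 (adjusted p = 2.39e-06, edgeR).

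Other changes of the members were set beside those of the same 2 cell types. Mgp and Col1a1 were also higher in the fibroblasts of both tumors than in those of any gland. Mgp was at 710, 60.1, 2549, 565, 7894 and 3141 CPM in fibroblasts, and its change was 3.35 ± 0.79 higher in members. Col1a1 was at 719, 145, 1086, 359, 9829 and 1542 in fibroblasts, and its change was 2.95 ± 0.67 higher in members. Chchd10 was at 286, 164, 651, 763, 3.48 and 3.79 in fibroblasts and at 462, 272, 552, 428, 5.51 and 6.12 in endothelial cells, and its change in members differed by 1.37 ± 1.14 from fibroblasts and 0.05 ± 0.82 from endothelial cells, which did not pass. Ccl2 was at 11039, 14628, 16484, 9491, 1903 and 3.79 in fibroblasts, a difference of -0.04 ± 0.30. Against endothelial cells the difference for Ccl2 was -2.06 ± 0.65, and neither passed. Fos had a difference of 0.22 ± 0.50 from fibroblasts, which did not pass, and of 1.79 ± 0.42 from endothelial cells, which passed (adjusted p = 0.0323, edgeR). Cxcl1, at 1875, 3179, 7988, 6180.4, 2232 and 164 in fibroblasts, fell further in members, by a difference of -2.11 ± 0.35 (adjusted p = 0.00123, edgeR). Higd1b had at most 0.108 CPM in fibroblasts and 0 in endothelial cells of all 6 libraries.

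**Figure D5:**
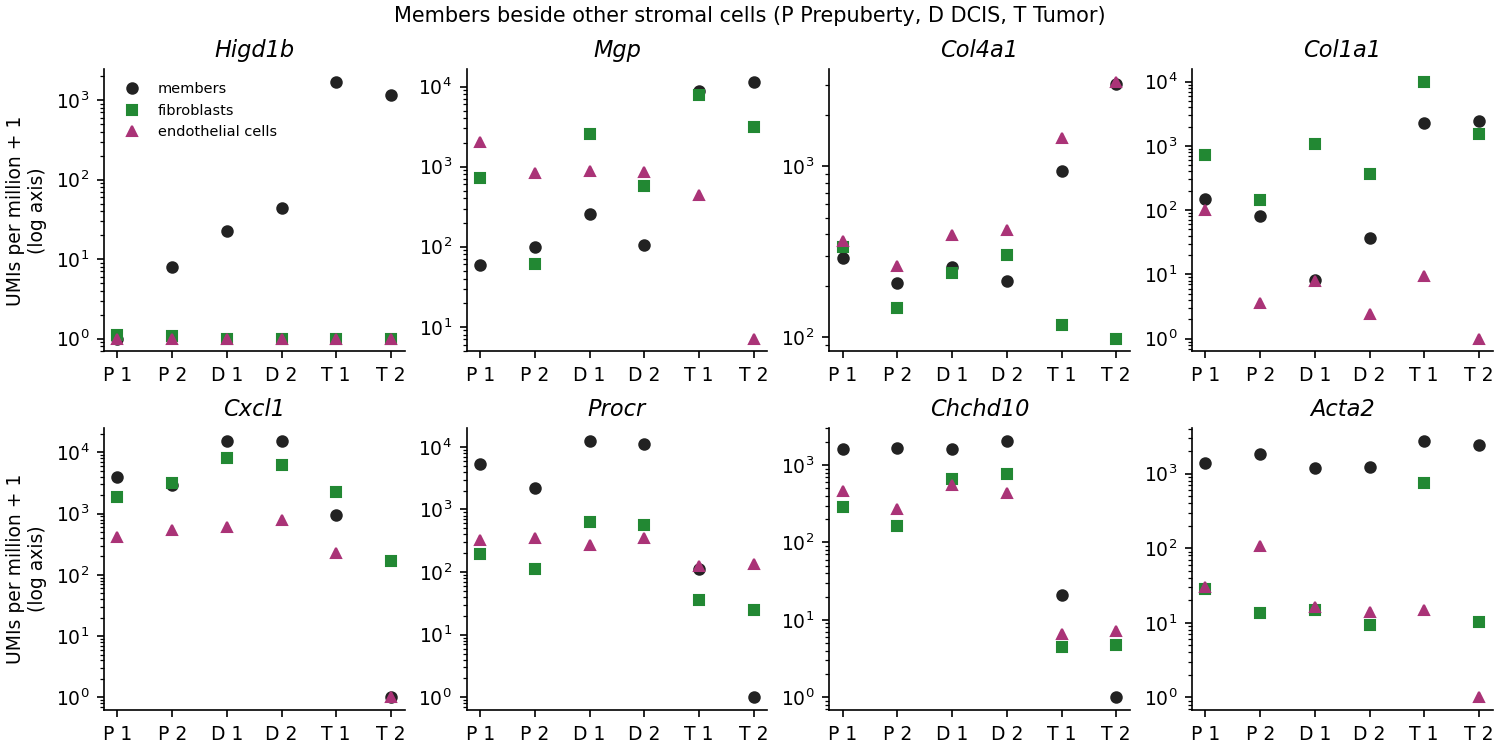
CPM plus 1 (log axis) of 8 genes in members, fibroblasts and endothelial cells of each library. Col4a1 is higher in members and endothelial cells of the tumors than of the glands but not in fibroblasts, Chchd10 is lower in the tumors in all 3 cell types, and Acta2 of fibroblasts is at 759 in Tumor 1 and at 9.09 in Tumor 2.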

How the data were processed

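Single-cell RNA was captured from 6 libraries with 10x Genomics kits. The authors aligned and counted the reads with Cell Ranger 3.0.2 to mm10 with the T antigen added, per the labels and methods, and the deposited matrices hold raw UMI counts per gene and barcode. Members were found by the rule given above, and their counts were summed per library (79419 to 584352 UMIs). Fits used edgeR 4.0.16 in R 4.3.3 with TMM scaling, filterByExpr and the quasi-likelihood F test, with 1 coefficient per state and Benjamini-Hochberg adjustment over all genes tested. Shares were tested with exact two-sided permutation tests over libraries (scipy 1.17.1). Cells are not replicates, and intervals and floors cover counting error only. Genes at 0 UMIs in a state were set against a floor of 3 counts over that state's summed UMIs, and those with 1 to 3 UMIs are given as ratios with exact 95% intervals.

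Named genes were the 12 largest changes in each direction past the threshold with 30 or more CPM in the higher state and no overlap of libraries, up to 5 genes of smallest p where fewer passed, the members of 26 gene lists that passed, and 6 genes per direction for the comparison with each other cell type. The genes of the rule and Acta2 entered the fits and the totals over all genes (1 of the 103 and 3 of the 112 that rose are genes of the rule), but their own tests are not given. The members and lists were chosen with earlier results of these data known. List counts leave out the genes of the rule, and those between Acta2 classes also Acta2. Doublets were not removed, and an alternative left out 5 members of high Scrublet score (scanpy 1.11.5). Alternatives were other scaling, DESeq2 1.42.0, no filter on low counts, thinning, other rules for members, each library left out, a replicate block and, chosen after the data were seen, fits with Tumor 2. The tests were tried on simulated data, where decreases were recovered less often than increases of the same size, so counts of higher and lower genes are not directly comparable. The replicate numbers were not taken to pair the libraries. Positions are from GENCODE M21 (GRCm38), and promoter windows from RefSeq. Schwann cell markers summed to 0 to 29.7 and red blood cell genes to 0 to 5.35 CPM in the members.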

Additional observations from a re-analysis of the deposited data

Results flagged for a closer look

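The change from DCIS to Tumor differed between members and fibroblasts or endothelial cells of the same libraries, by the state by cell type term, for the genes below. Values are the log2 change in members minus that in the other cell type, with Tumor 1 as the Tumor library.

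Against fibroblasts, the change in members was higher for the matricellular gene Cyr61 (4.86), the collagen genes Col18a1 (3.85) and Col4a1 (3.44), the small heat shock gene Cryab (3.46), the actin-severing Gsn (3.28) and the MHC class I light chain B2m (1.96). It was lower for Actg2 (-7.77), Lpl (-5.94), Igfbp5 (-4.68), which encodes a binding protein of insulin-like growth factors, Cxcl2 (-3.70), Fstl1 (-2.88), a secreted glycoprotein, and Ccl7 (-2.21). The Actg2 value rests on 0 and 0.326 CPM in the fibroblasts of DCIS, against 118 in Tumor 1 and 0 in Tumor 2. With Tumor 2 in place of Tumor 1 the signs of B2m (-1.61) and Actg2 (2.47) turned. None of these 12 passed without DCIS 1 or without DCIS 2.

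Against endothelial cells, the change was higher for Mgp (6.79), Ier2 (3.91), the transcription factor gene Ebf1 (3.65), the tetraspanin-like Tm4sf1 (3.49), Hspb1 (2.49) and the tetraspanin gene Cd63 (2.34). It was lower for Igfbp5 (-8.58), Igfbp3 (-7.32), the Notch-regulated Nrarp (-6.23), Procr (-5.31), the interferon-induced Ifitm1 (-4.20) and Fstl1 (-3.60). Igfbp3 stood at 49.0, 77.9, 4625 and 3069.8 CPM in the endothelial cells of DCIS 1, DCIS 2, Tumor 1 and Tumor 2, and at 71.7, 121, 39.7 and 88.1 in members. With Tumor 2 in place of Tumor 1 the sign of Ifitm1 turned (1.20).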

How the results depend on the processing

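The trend of the share of members over the states had r between -0.989 and -0.854 with each library left out, and its exact permutation p was 0.0667 without DCIS 1 or DCIS 2 and 0.1 without Tumor 1 or Tumor 2, designs with fewer arrangements. It was 0.241 with cells without Epcam, Ptprc or T-antigen UMIs as the denominator. The trend of the Acta2-high share ranged from 0.309 to 0.717.

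The number of genes past the threshold moved by over 1.5 times in many fits. For DCIS against Prepuberty (5 genes) it was 20 with DESeq2, 140 with no filter on low counts, 37 with thinned sums, 0 with Rgs5 of 4 or more, 19 without UMIs of 9 genes of other cells, 1 without the highest Scrublet scores, 0 under a 5% mitochondrial share, 3 in Acta2-low members, 0 with Tumor 2 added, 13 with it in DESeq2, and 1 (without DCIS 1) to 73 (without Prepuberty 2) with a library left out. For Tumor against DCIS (171) it was 113, 380 and 261 with DESeq2, no filter and thinned sums, 78 without UMIs of 9 other genes, 26 in Acta2-low members, 295 with Tumor 2 added and 394 with it in place of Tumor 1, and 56 (without DCIS 1) to 404 (without Prepuberty 2), with 86 without DCIS 2. For Tumor against Prepuberty (173) it was 100 with DESeq2, 347 with no filter, 98 without UMIs of 9 other genes, 51 in Acta2-low members, 271 and 341 with Tumor 2 added or in place, and 96 (without Prepuberty 1) to 329 (without Prepuberty 2). Against fibroblasts (75) it was 125 with no filter, 255 with Tumor 2 in place, and 0 (without DCIS 1 or DCIS 2) to 135 (without Prepuberty 1), with 125 without Prepuberty 2. Against endothelial cells (96) it was 116 (without DCIS 1) to 186 (without Prepuberty 2), with 163 without Prepuberty 1 and 181 without DCIS 2. The causes were not tested.

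The replicate numbers were not taken to pair the libraries. Deviations of same-numbered libraries from their state means had correlations of 0.266, -0.002 and 0.062 across 2616 genes. With 2 libraries per state each value is a single comparison, so it cannot decide whether the numbers pair. With a replicate block 282, 518 and 436 genes passed in the 3 comparisons in the order above, and 0, 270 and 261 with the block and Tumor 2 added.

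With Tumor 2 in place of Tumor 1 the sign turned from DCIS to Tumor for Vtn (-2.24), Fos (-0.019), Jun (-0.22), Nr4a1 (-3.16), Dusp1 (-2.09) and Emcn (-4.08), and from Prepuberty to Tumor for Vtn (-1.55), Myl9 (-0.45), Klf4 (-0.0082), Il34 (-1.78), Nr4a1 (-2.17), Dusp1 (-1.35) and Gadd45b (-2.11). It also turned for the differences of B2m (-1.61) and Actg2 (2.47) from fibroblasts and of Ifitm1 (1.20) from endothelial cells. From Prepuberty to Tumor it turned without UMIs of 9 genes of other cells for Myl9 (-0.63) and Dcn (0.019), and in Acta2-low members for Myl9 (-0.61) and Actg2 (-0.80). Over the named genes and their fits, 2431 values kept their direction and side of the threshold, 600 no longer passed and 20 turned. Fits of Acta2-high members alone against DCIS could not be made, with 4 and 7 such members. Depth limits the Tumor values, which rest on 23 and 8 members.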

Other observations

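Some genes outside the rule for naming were chosen after their values were seen. Ren1, which encodes renin and marks juxtaglomerular cells and some vessel walls, had 15, 93, 24, 2, 0 and 0 UMIs in the members of Prepuberty 1, Prepuberty 2, DCIS 1, DCIS 2, Tumor 1 and Tumor 2. A single member held 67 of the 93 in Prepuberty 2 and 14 of the 24 in DCIS 1.

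Il6, an inflammatory cytokine, stood at 1140.0, 339, 4464, 2509.6, 456 and 25.2 CPM in the members. Its log2 fold change from DCIS to Tumor was -2.94 ± 0.79, which did not pass (edgeR adjusted p = 0.0633).

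Igfbp5 stood at 939, 599, 573, 655, 39.7 and 0 CPM in the members, and fell from DCIS to Tumor by 3.94 ± 0.63 (edgeR adjusted p = 0.00912).

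Acta2 and Tagln were higher in the fibroblasts of Tumor 1 than in those of any other library. Acta2 was at 27.4, 12.5, 13.6, 8.31, 759 and 9.09 CPM in the fibroblasts, and Tagln at 22.3, 7.04, 32.4, 11.9, 592 and 10.6. The fibroblasts of Tumor 1 numbered 53 and those of Tumor 2 numbered 90.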
